A study of Mus musculus with 9 samples.

Results

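The 10 genes described here, Mest, H19, Dlk1, Meg3, Peg3, Plagl1, Cdkn1c, Grb10, Ndn and Zim1, are imprinted genes of a growth network that is active before and shortly after birth. They were taken by name from a table with 22354 gene symbols. All 10 had a row, and for a symbol with more than 1 row the brightest row by mean over the 9 arrays was taken. The genes were chosen by name, with earlier values of the same arrays in Control, Active and Resting columns known, so the counts over the 10 genes are a description and carry no test of the list. Each gene's own p-value, adjusted over all 24367 rows, says how its difference compares with the spread between arrays.

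The tissue came from tibiae of female mice, with an age of 2 months in the labels, and each group had 3 arrays. In the Active group the tibia was fractured and the NSAID carprofen, a blocker of the COX enzymes, was given at 20 mg/kg for 3 days at ZT13, where ZT counts the hours after lights on. The Resting group had the same fracture and the same dose, given at ZT2. Control mice had neither surgery nor NSAID, although the titles of their samples also name a hematoma. Both fractured groups had their surgery at one time of day, and their tissue was taken at ZT6, 78 hours after it. The last dose then lay over 18 hours back for Active mice and over 30 hours back for Resting mice. With no fractured group without carprofen, the fracture and the drug cannot be told apart in the comparisons with the control, and the time of dosing and the time since the last dose cannot be told apart between the fractured groups. The study's text speaks of RNA pools, so an array may hold RNA of more than 1 mouse, and the tests see only the array-to-array spread. Values are normalized log2 signals, and a level of one gene cannot be set against that of another gene, because each has its own probes. In bulk tissue, fewer cells of a type and less RNA per cell cannot be told apart.

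An imprinted gene is transcribed mainly from the copy inherited from one parent, and the silent copy is marked by DNA methylation or by a noncoding RNA. Paternally expressed genes often favour growth and maternally expressed genes often restrain it. In the mouse many of them are abundant in fetal muscle, cartilage and connective tissue, decline together after birth and are known to return in some regenerating tissues. Mest, Dlk1, Peg3, Plagl1 and Ndn are expressed from the paternal copy. H19, Meg3, Cdkn1c and Zim1 are expressed from the maternal copy, and so is Grb10 in most mouse tissues outside the brain. The array does not tell the parental copies apart.

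The sequences that go with these genes come from RefSeq (GRCm38.p6). For 8 of the 10 genes the tables held a promoter window, here the 250 bases before a transcript start. A few windows are printed for their CG pairs, the bases that can carry DNA methylation, or for a motif of one member in front of another. Methylation was not measured, and a window with many CG pairs need not carry an imprint. Mest and Grb10 are shown as the genes with a promoter window whose levels differed most from the control, with CG in capitals. Both have several windows, and one with the highest number of CG pairs is printed, for Mest the first of 2 with the same number. The Mest window is chr6:30737800-30738049 (plus strand), and the Grb10 window is chr11:12037421-12037670 (minus strand).
Mest: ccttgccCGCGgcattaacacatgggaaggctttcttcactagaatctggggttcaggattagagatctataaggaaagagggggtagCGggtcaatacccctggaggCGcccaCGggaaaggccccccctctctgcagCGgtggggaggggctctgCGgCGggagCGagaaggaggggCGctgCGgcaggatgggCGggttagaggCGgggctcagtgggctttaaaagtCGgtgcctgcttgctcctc
Grb10: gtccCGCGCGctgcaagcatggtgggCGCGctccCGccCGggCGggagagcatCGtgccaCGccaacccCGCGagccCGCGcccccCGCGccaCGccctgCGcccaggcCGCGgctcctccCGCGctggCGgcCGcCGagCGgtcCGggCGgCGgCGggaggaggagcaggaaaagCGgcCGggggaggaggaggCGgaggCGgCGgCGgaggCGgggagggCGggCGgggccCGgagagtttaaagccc
The Mest window held 14 CG pairs, a number reached by 29.4% of all 32851 windows of this length, and the Grb10 window held 40, reached by 1.31% of them. These windows were picked as the richest of their genes, and the other windows held 7 CG pairs for Mest (reached by 46.3%) and 8 for Grb10 (43.0%). The median over all windows was 6.

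Peg3 is shown for the motif GGGGCCCC, which reads the same on both strands and is known as a binding motif of ZAC1, the zinc finger protein made by Plagl1. The Peg3 window is chr7:6730420-6730669 (minus strand), with the motif in capitals.
Peg3: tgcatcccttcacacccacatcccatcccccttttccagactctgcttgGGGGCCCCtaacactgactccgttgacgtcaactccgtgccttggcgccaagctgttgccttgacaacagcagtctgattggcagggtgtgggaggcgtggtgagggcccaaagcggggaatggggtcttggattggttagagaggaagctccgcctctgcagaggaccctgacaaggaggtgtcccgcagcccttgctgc
It was the only one of the 12 windows of the 10 genes with this motif, and 0.889% of all windows held it. A match of letters is a description and says nothing of binding in this tissue.

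Several of the genes carry or neighbour miRNA genes, and the mature miRNAs to which the results below refer are printed with the seed (bases 2 to 8) in capitals. Mir335 lies within Mest (chr6:30741314-30741336 and chr6:30741354-30741375, plus strand).
mmu-miR-335-5p: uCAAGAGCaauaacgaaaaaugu
mmu-miR-335-3p: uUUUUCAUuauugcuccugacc
Mir675 is cut from the H19 transcript (chr7:142577112-142577133 and chr7:142577078-142577099, minus strand).
mmu-miR-675-5p: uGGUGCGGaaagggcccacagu
mmu-miR-675-3p: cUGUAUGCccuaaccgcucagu
Mir493, Mir544 and Mir453 lie downstream of Meg3, on the plus strand of chromosome 12 (chr12:109580243-109580261, chr12:109580283-109580305, chr12:109729335-109729355, chr12:109729371-109729392 and chr12:109735669-109735692).
mmu-miR-493-5p: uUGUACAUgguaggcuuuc
mmu-miR-493-3p: uGAAGGUCcuacugugugccagg
mmu-miR-544-5p: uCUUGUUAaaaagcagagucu
mmu-miR-544-3p: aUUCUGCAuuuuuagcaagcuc
mmu-miR-453: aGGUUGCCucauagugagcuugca
The 9 mature sequences had 9 different seeds.

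Against the control, 8 of the 10 genes were called higher in the Active group, where 11.8% of all rows were called higher, and 8 were called higher in the Resting group, where 9.08% of all rows were. A gene was called at an adjusted p under 0.05, and none of the 10 was called lower, as 12.1% of all rows were in the Active group and 10% in the Resting group. The median difference over the 10 genes was 0.95 log2 units for Active and 1.11 for Resting, beside 0.0246 and 0.0232 over all rows. Called and at least 2-fold higher were 4 genes in the Active group (3.1% of all rows) and 5 in the Resting group (2.65%). Meg3 counts among them by its brightest row, and the average of its rows was called but rose by less than 2-fold. Groups did not overlap, with every fractured array higher, for 8 genes in the Active group (18.9% of all rows) and for 9 in the Resting group (17.6%). Both comparisons use the same control arrays, so their values stand side by side and are not independent. The same 8 genes were called in both: Mest, H19, Grb10, Meg3, Zim1, Plagl1, Ndn and Cdkn1c.

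**Figure D1:**
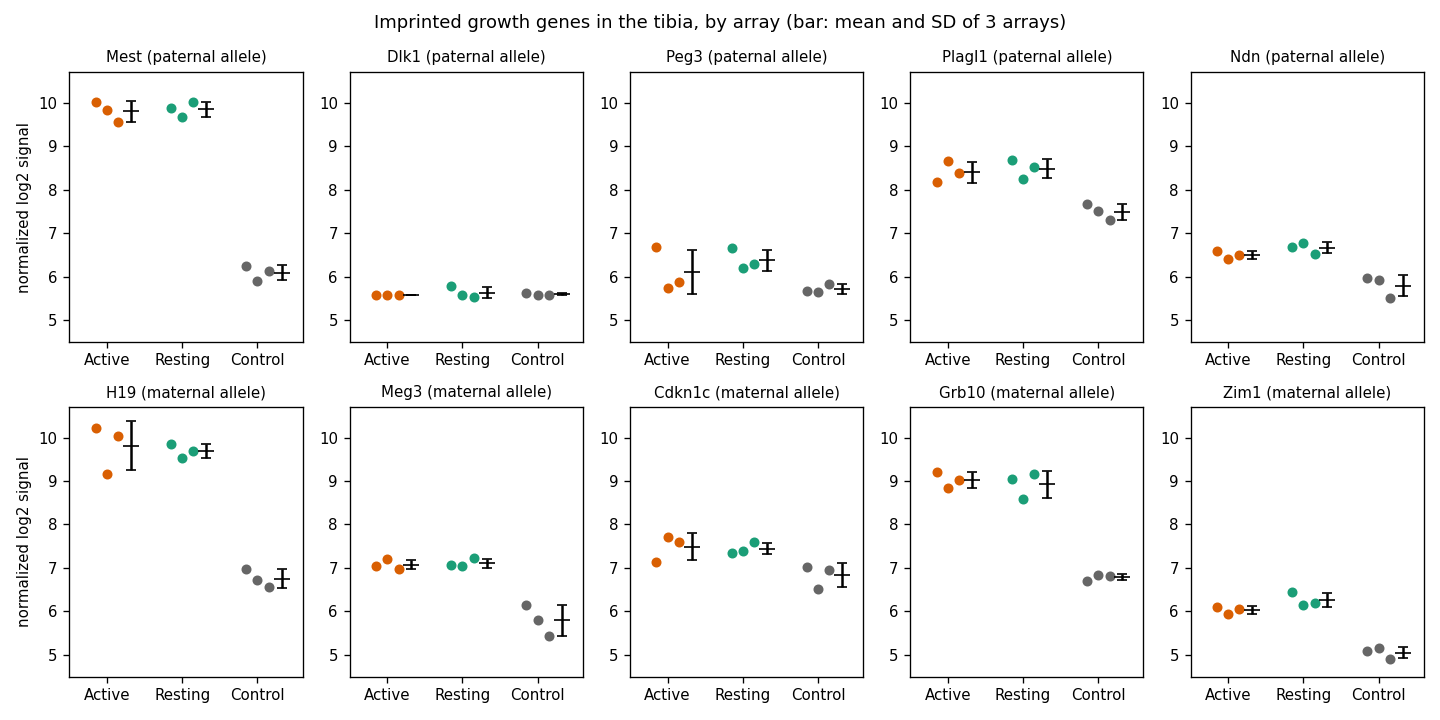
Normalized log2 signal of the 10 imprinted genes in each array, in the Active, Resting and Control groups, with the mean and SD of 3 arrays beside the points and the parental copy in the title of each panel. The fractured arrays of Mest, H19 and Grb10 lie between 8.58 and 10.23 and the control arrays of these genes between 5.90 and 6.98, while the Dlk1 arrays lie between 5.53 and 5.78 in all groups.

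Among the noncoding RNAs, H19 is a maternally expressed transcript known for its abundance in fetal muscle and as the source of miR-675. It had log2 signals of 10.23, 9.17 and 10.03 in the Active arrays, 9.85, 9.53 and 9.69 in the Resting arrays and 6.98, 6.73 and 6.56 in the control arrays. The lowest fractured array, Active 2, was still 2.19 above the highest control array. H19 was 8.32-fold higher in the Active group (log2 difference 3.06 ± 0.24 SE, adjusted p = 1.1e-05) and 7.66-fold higher in the Resting group (2.94 ± 0.24, adjusted p = 2.3e-05) than in the control. By size of difference it ranked 17 of 22354 symbols in the Active group and 22 in the Resting group. Its probe set is also annotated to Mir675, so the miRNA whose sequence stands above has no value of its own here.

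Meg3, the other maternally expressed long noncoding RNA, lies downstream of Dlk1, and its probe set is also annotated to Mir770. Its signals were 7.05, 7.20 and 6.98 in the Active arrays and 7.06, 7.04 and 7.23 in the Resting arrays, against 6.15, 5.79 and 5.43 in the control arrays, the most spread of the control groups of the 10 genes (SD 0.36). Every fractured array was above every control array. Meg3 rose 2.44-fold in the Active group (1.28 ± 0.16, adjusted p = 0.00024) and 2.5-fold in the Resting group (1.32 ± 0.16, adjusted p = 0.00028). The probe sets of Meg3 differed from each other. The row used above was chosen by its mean over all 9 arrays, fractured ones included. Such a choice can favour a row with a larger rise. A second row, annotated to Meg3 and to the miRNA genes Mir1906-1 and Mir1906-2, was 1.0 higher for Active (adjusted p = 0.0038) and 0.55 higher in the Resting group (adjusted p = 0.082). The remaining row differed from the control by 0.06 and 0.13, and with the rows averaged Meg3 was 0.78 higher in the Active group and 0.67 higher in the Resting group.

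Among the growth inhibitors, Grb10 encodes an adaptor that binds the insulin and IGF1 receptors and dampens their signal. The Grb10 arrays read 9.21, 8.84 and 9.03 in the Active group, 9.04, 8.58 and 9.17 in the Resting group and 6.70, 6.83 and 6.82 in the control, whose arrays differed little among themselves (SD 0.07). Fractured and control arrays were at least 1.76 apart. The difference was 2.24 ± 0.16 in the Active group (4.73-fold, adjusted p = 6.6e-06) and 2.15 ± 0.16 in the Resting group (4.42-fold, adjusted p = 1.4e-05).

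Cdkn1c encodes p57, an inhibitor of cyclin-dependent kinases that stops cell division. Signals of 7.13, 7.72 and 7.60 in the Active arrays and 7.35, 7.39 and 7.60 in the Resting arrays stood against 7.03, 6.51 and 6.96 in the control arrays. The groups were separated by only 0.11 between Active 1 and Control 1 and by 0.32 in the Resting group. The differences of 0.65 ± 0.18 (adjusted p = 0.021) and 0.62 ± 0.18 (adjusted p = 0.034) were the weakest that were called. The call of the Active group was lost without Active 2, Active 3 or Control 2 (adjusted p 0.08, 0.075 and 0.082), and that of the Resting group without Resting 2, Resting 3, Control 2 or Control 3 (adjusted p 0.073, 0.12, 0.12 and 0.058).

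Of the zinc finger genes, Plagl1 encodes ZAC1, a transcription factor known to control other imprinted genes. It measured 8.17, 8.65 and 8.38 in the Active arrays, 8.68, 8.25 and 8.52 in the Resting arrays and 7.66, 7.50 and 7.30 in the control arrays. The highest control array was 0.51 below the lowest Active array and 0.59 below the lowest Resting array. Plagl1 was 1.88-fold higher in Active arrays (0.91 ± 0.16, adjusted p = 0.0016) and 2.0-fold higher in Resting arrays (1.0 ± 0.16, adjusted p = 0.0012). With its second row averaged in, the difference of the Resting group was 0.61 and not called (adjusted p = 0.17).

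Peg3 and Zim1 are neighbours on chromosome 7 that are expressed from opposite parental copies, and both encode zinc finger proteins. The signals of Zim1 were 6.11, 5.93 and 6.05 in the Active arrays, 6.44, 6.15 and 6.20 in the Resting arrays and 5.08, 5.15 and 4.91 in the control arrays. All fractured arrays were at least 0.79 above the control. Zim1 was higher than the control by 0.98 ± 0.12 for Active (adjusted p = 0.00014) and by 1.22 ± 0.12 for Resting (adjusted p = 5.2e-05). Its neighbour Peg3 had 6.68, 5.74 and 5.88 in the Active arrays, 6.65, 6.19 and 6.29 in the Resting arrays and 5.66, 5.65 and 5.84 in the control arrays.

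In Peg3, then, Active 1 stood apart from the other Active arrays, and Active 2 lay within the control range, while the Resting arrays were all above it. Neither difference was called, with 0.39 ± 0.22 for Active (adjusted p = 0.26) and 0.66 ± 0.22 for Resting (adjusted p = 0.062). Without Active 1 the Peg3 difference of the Active group was 0.09. The adjusted p of the Resting group was then 0.0074, and it was 0.044 without Active 2. Active 1 was above the other Active arrays in the mean of several marker lists (described below). These were regenerating muscle (8.82, against 8.29 and 8.42), erythroid (8.07, against 7.13 and 7.16) and B lymphocyte genes (6.88, against 6.29 and 6.48). Resting 1, with a Peg3 signal of 6.65, had a regenerating muscle mean of 8.36, against 8.24 and 8.37 in the other Resting arrays. The part of such differences between arrays in the Peg3 values was not tested. The Peg3 probe set is also annotated to the antisense gene Peg3os, so RNA of either gene cannot be told apart.

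Mest showed the largest difference of the 10 genes. It encodes a hydrolase-like protein of the endoplasmic reticulum and is known as a mesoderm-specific transcript. It had 10.01, 9.84 and 9.55 in the Active arrays, 9.88, 9.67 and 10.01 in the Resting arrays and 6.24, 5.90 and 6.12 in the control arrays. The closest fractured and control arrays were 3.31 apart. Mest rose 13.1-fold in the Active group (3.71 ± 0.15, adjusted p = 6.8e-07) and 13.6-fold in the Resting group (3.77 ± 0.15, adjusted p = 1e-06), which placed it 5 of 22354 symbols by size of difference in the Active group and 2 in the Resting group. Mir335, within Mest, read 3.90, 3.77 and 3.62 in the Active arrays, 3.50, 4.28 and 3.89 in the Resting arrays and 4.01, 3.94 and 4.19 in the control arrays. Its differences of -0.28 (adjusted p = 0.3) and -0.16 (adjusted p = 0.63) were not called. These signals lay below the 25th percentile of every array (4.967 at the lowest), so a difference could be missed. Copg2, which overlaps the far end of Mest, was not called either (-0.34, adjusted p = 0.18, and -0.37, adjusted p = 0.17).

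Ndn encodes necdin, a protein of the MAGE family that restrains division and is known to promote muscle differentiation. The Ndn arrays read 6.59, 6.41 and 6.50 in the Active group, 6.69, 6.77 and 6.53 in the Resting group and 5.96, 5.91 and 5.51 in the control. All fractured arrays were above the control arrays by 0.45 or more. Ndn exceeded the control by 0.71 ± 0.13 in the Active group (adjusted p = 0.0029) and by 0.87 ± 0.13 in the Resting group (adjusted p = 0.0011).

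Dlk1, a transmembrane protein related to Notch ligands that is known to hold back fat cell formation, was not called in any comparison. It had 5.58 in every Active array, 5.78, 5.58 and 5.53 in the Resting arrays and 5.63, 5.58 and 5.58 in the control arrays. The value was the same in 6 of the 9 arrays, and 1.05% of all rows share 1 value among 5 or more arrays. The differences were -0.02 (95% interval -0.23 to 0.20) and 0.04 (-0.18 to 0.25).

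**Figure D2:**
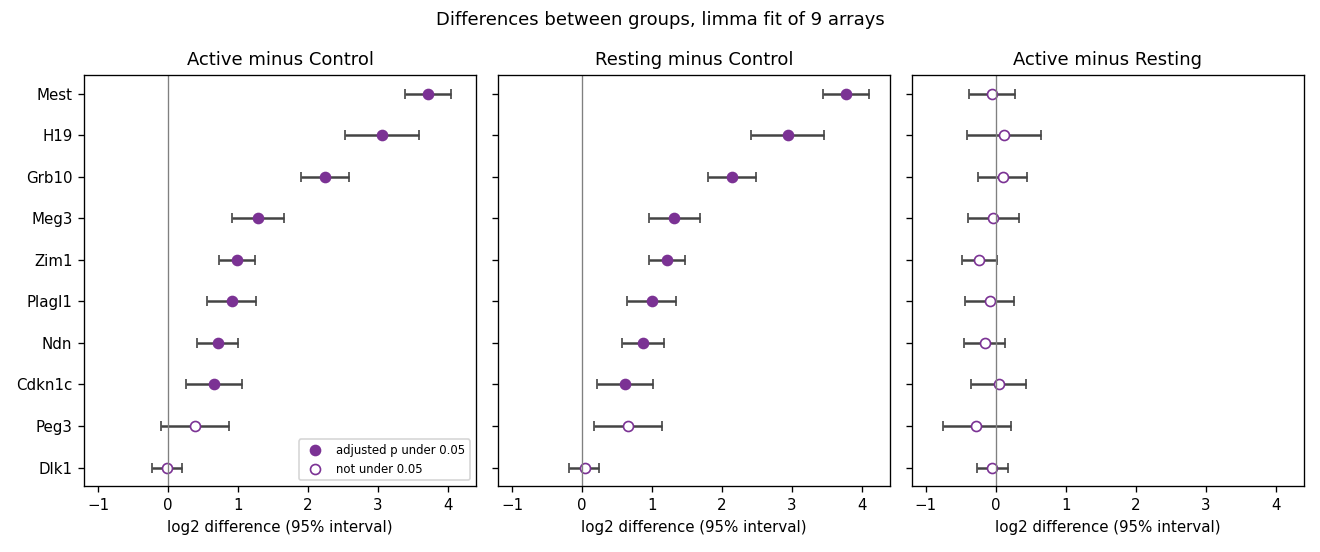
Log2 differences with 95% intervals for the 10 genes in the limma fit of 9 arrays, with Active minus Control on the left, Resting minus Control in the middle and Active minus Resting on the right, and filled points for an adjusted p under 0.05. Mest, H19 and Grb10 lie above 2 in both comparisons with the control, and every interval of Active minus Resting contains 0.

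The time of dosing was compared between the fractured groups. None of the 10 genes was called between the Active and the Resting group, where 0% of all rows were called, and none had an unadjusted p under 0.05, against 1489 rows (6.11%). The differences were at most 0.28 in size, and their 95% intervals ran from -0.76 to 0.64 at the widest, so larger differences than that lie outside the intervals of all 10 genes. The intervals were narrow for some, from -0.38 to 0.27 for Mest and from -0.25 to 0.44 for Grb10, and wide for Peg3 (-0.76 to 0.21) and H19 (-0.41 to 0.64). Zim1 was the one gene whose groups did not overlap (4.77% of all rows were lower with no overlap), with all Active arrays below all Resting arrays and a difference of -0.24 ± 0.12 (95% interval -0.49 to 0.02, adjusted p = 0.85). Without Active 1 there were 35 rows called and without Resting 2 there was 1, none of them for the 10 genes. Exact permutation tests of 3 arrays against 3 cannot go below p = 0.1, the value for Zim1.

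By parental copy, all 5 maternally expressed genes were called higher in both comparisons with the control, with a median difference of 1.28 in the Active group and 1.32 in the Resting group. Of the 5 paternally expressed genes 3 were, with medians of 0.71 and 0.87. Dlk1 and Peg3 were the exceptions. The largest differences came from each side, Mest from the paternal and H19 from the maternal copy.

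The 10 genes were set beside 48 other imprinted genes with a row. Of these, 14 were called higher and 3 lower in the Active group, or 29.2% higher, and 11 higher and 4 lower in the Resting group, or 22.9% higher, with median differences of 0.15 and 0.18. Called higher in both were 10 genes: Impact, Slc38a4, Zdbf2, Airn, Igf2r, Cd81, Mirg, Atp10a, Tfpi2 and Dcn. Zrsr1, Tspan32 and Slc22a3 were lower in both. Of the genes listed as paternally expressed 7 of 22 were higher in the Active group, and of those listed as maternally expressed 7 of 26. In the Resting group 5 and 6 were. Imprinting can depend on the tissue, and whether these genes are imprinted in the tibia was not measured.

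Slc38a4, a paternally expressed amino acid transporter, had the largest rise among the other imprinted genes. Its signals were 8.49, 7.84 and 8.14 in the Active arrays, 7.94, 7.95 and 7.99 in the Resting arrays and 6.12, 6.61 and 6.0 in the control arrays (differences of 1.92, adjusted p = 3.8e-05, and 1.71, adjusted p = 0.00011). Igf2r, the receptor that clears IGF2, was 1.14 higher in both groups (adjusted p 0.00033 and 0.00046). Igf2, the growth factor next to H19 that shares its control region, read 7.46, 7.11 and 6.89 in the Active arrays, 7.06, 6.94 and 7.08 in the Resting arrays and 6.69, 6.49 and 6.69 in the control arrays. The groups did not overlap, but the differences of 0.53 (adjusted p = 0.02) and 0.40 (adjusted p = 0.076) stand beside 3.06 and 2.94 for H19, and the Resting group was not called. Near Cdkn1c, neither Kcnq1ot1 (-0.09 and -0.17) nor Phlda2 (-0.14 and -0.28) was called, while Tspan32 of the same chromosome, a tetraspanin of blood cells, fell by 2.15 and by 1.61 (adjusted p 2.5e-05 and 0.00023).

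**Figure D3:**
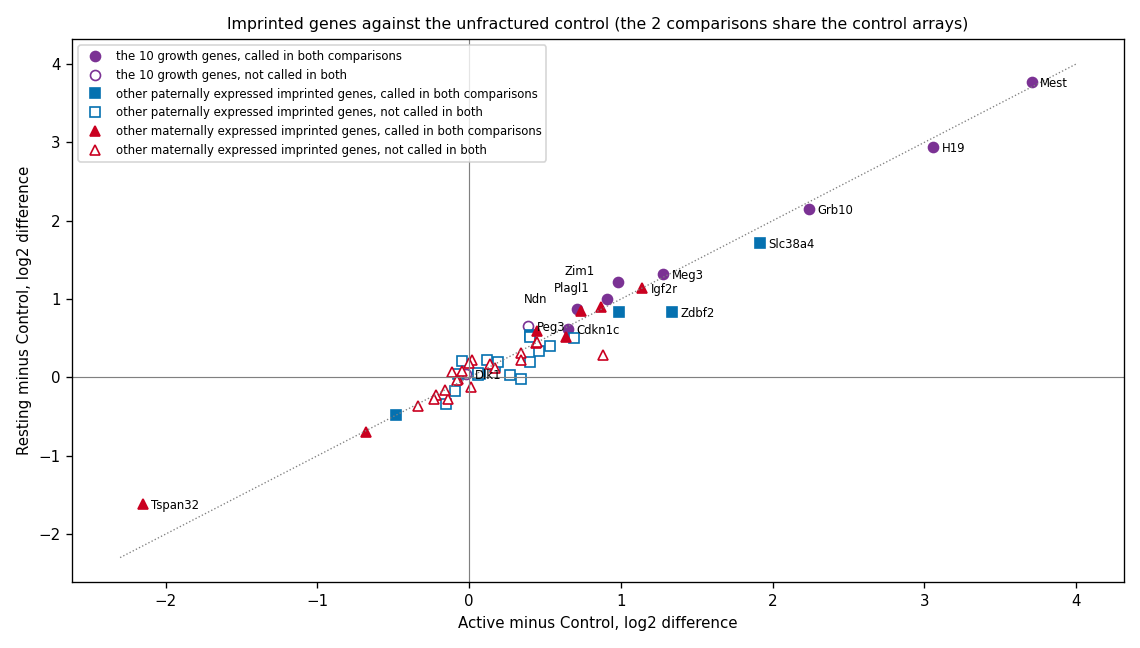
Difference from the control in the Resting group (vertical axis) against that in the Active group (horizontal axis), both in log2, for the 10 growth genes (circles), other paternally expressed genes (squares) and other maternally expressed genes (triangles), filled where called in both comparisons, with a dotted line of equal values. Mest (3.71 and 3.77) and H19 (3.06 and 2.94) lie farthest to the upper right and Tspan32 (-2.15 and -1.61) to the lower left. The comparisons share the control arrays, so nearness to the line is partly built in.

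The imprinted region that starts with Dlk1 and Meg3 and ends at Dio3 was then read along its whole length. RefSeq lists 103 genes in it and 57 had a row, most of them miRNA and snoRNA genes that are processed from long maternally expressed transcripts. In the Active group 15 rows were called higher (26.3%, beside 11.8% of all rows) and in the Resting group 16 (28.1%, beside 9.08%). None was called lower, and 13 were higher in both, among them Meg3 and Mirg, which are also counted above. The median differences were 0.27 and 0.29. None of the 3 protein-coding genes, Dlk1, Rtl1 and Dio3, all paternally expressed, was called. Of the 54 noncoding rows, 15 were called in the Active group and 16 in the Resting group. The 3 coding rows are too few to set against the noncoding ones, and the Dlk1 row held 1 value in 6 of the 9 arrays. Neighbouring rows can come from 1 transcript, so they are not independent genes.

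The largest rise of the region was in the snoRNA gene AF357425, with signals of 8.99, 9.47 and 8.76 in the Active arrays, 8.41, 8.75 and 8.97 in the Resting arrays and 5.13, 5.15 and 5.70 in the control arrays (3.75, adjusted p = 3e-06, and 3.38, adjusted p = 8.8e-06). Of the 7 snoRNA rows 5 were called in the Active group and 4 in the Resting group. Mir493 had 8.48, 7.47 and 8.13 in the Active arrays, 7.91, 7.46 and 7.65 in the Resting arrays and 4.88, 5.27 and 5.09 in the control arrays. It was 7.71-fold higher in the Active group (adjusted p = 1.1e-05) and 6.04-fold higher in the Resting group (adjusted p = 3.3e-05). Mir453 was 5.49-fold and 4.98-fold higher (adjusted p 9.8e-06 and 2.2e-05), and Mir544 4.49-fold and 3.61-fold (adjusted p 1.6e-05 and 6.1e-05). These array rows measure RNA from the miRNA genes, and the mature forms printed above cannot be told apart from their precursors, nor the 5p from the 3p arm. Of the 43 miRNA rows, 8 were called higher in the Active group and 10 in the Resting group, and 7 in both. The row of the lncRNA Mirg, whose probe set is also annotated to Mir369, Mir410 and Mir412, rose by 0.64 (adjusted p = 0.0034) and 0.51 (adjusted p = 0.016). The Rtl1 probe set is also annotated to Mir432, and its differences were 0.34 (adjusted p = 0.1) and -0.02 (adjusted p = 0.95), with all Active arrays above the control arrays. None of the 57 rows was called between the Active and the Resting group.

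Paralogs of the 10 genes were called in both directions. Of 10 paralogs, which include Magel2, itself imprinted and counted among the 48 genes above, 3 were called higher and 3 lower in the Active group, and 3 higher and 2 lower in the Resting group. Cdkn1a, which encodes the kinase inhibitor p21, rose by 1.89 and 2.08 (adjusted p 0.00019 and 0.00014), whereas Cdkn1b, which encodes p27, fell by 1.01 and by 0.98 (adjusted p 0.00035 and 0.0006). Beside Plagl1, which rose, Plagl2 fell by 1.0 and by 0.81 (adjusted p 0.00012 and 0.00062) and Plag1 was not called (-0.30 and -0.08). Maged1 (1.65 and 1.74) and Maged2 (1.31 and 1.30), of the MAGE family of necdin, rose, and Magel2 (0.07 and 0.05) was not called. Grb7 fell by 0.43 in the Active group (adjusted p = 0.017), and its difference in the Resting group was not called (-0.21, adjusted p = 0.26). Grb14 and Dlk2 were not called. The shares of all rows called were 11.8% (higher) and 12.1% (lower) for Active, and 9.08% and 10% for Resting.

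In the insulin and IGF pathway, on which Grb10 acts, 5 of 10 genes were called higher and 2 lower in the Active group, and 2 higher and 1 lower in the Resting group. Of all rows, 11.8% were higher and 12.1% lower for Active, and 9.08% and 10% for Resting, to which the Resting counts were close. Igf2 and Igf2r of this list are also counted among the 48 imprinted genes above. Igf1 rose by 0.88 and 0.77 (adjusted p 0.013 and 0.03), and Irs2, a docking protein of the insulin receptor, fell by 0.73 and by 0.56 (adjusted p 0.0029 and 0.015). Of 8 genes known for early postnatal growth that are not imprinted, 1 was higher and 1 lower in each group, a share close to that of all rows. They were Igf2bp2, an mRNA-binding protein (0.72 and 0.54, adjusted p 0.0015 and 0.01), and Ezh2, a histone methyltransferase of dividing cells (-1.35 and -1.19, adjusted p 2e-05 and 6.4e-05).

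Marker genes of the cells that the tissue can hold differed between fractured and control bones along with the 10 genes. Of 20 fibroblast and repair matrix genes, among them Fn1 and Col1a1, 18 were called higher for Active and 19 for Resting. Their mean signal ran from 10.02 to 10.31 in the Active arrays, up to 10.38 in the Resting arrays and from 8.37 to 8.69 in the control arrays. Of 14 regenerating muscle genes, among them Des and Myf6, 12 were higher for Active and 11 for Resting, with means of 8.29 to 8.82 in the Active arrays, 8.24 to 8.37 in the Resting arrays and 6.33 to 6.65 in the control arrays. No fractured array overlapped the control in either list, nor in the mean over the 10 genes, which ran from 7.51 to 7.68 in the Active arrays, from 7.52 to 7.74 in the Resting arrays and from 6.10 to 6.31 in the control arrays. Of 10 osteoblast and osteocyte genes, 1 was higher and 1 lower in the Active group and 3 were higher in the Resting group, with median differences of 0.17 and 0.20. Differences were below 0 for 3 of these genes in the Active group and for 4 in the Resting group. The mean of this list overlapped the control, with 8.21 to 8.68 in the Active, 8.15 to 9.03 in the Resting and 8.13 to 8.53 in the control arrays. Its 2 genes of highest mean were Ibsp and Spp1. Ibsp, the bone sialoprotein, was at 11.45 to 11.93 in the Active arrays, 11.48 to 12.56 in the Resting arrays and 10.14 to 10.88 in the control arrays. Spp1, the osteopontin gene, was at 10.37 to 11.05 in the Active arrays, 10.44 to 11.15 in the Resting arrays and 9.92 to 10.40 in the control arrays, and its Active and control arrays overlapped. Adult skeletal muscle genes were higher in 9 of 18 cases in the Active group and in 1 in the Resting group.

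Erythroid, B lymphocyte, neutrophil and division genes went the other way. All 14 erythroid genes fell in the Active group and 13 in the Resting group (median differences -3.22 and -2.48), and all 12 genes of dividing cells fell in each (-1.37 and -1.15). B lymphocyte genes were lower in 14 of 15 cases in each group, and neutrophil genes in 15 of 15 cases for Active and in 8 of 15 for Resting. Monocyte and macrophage genes were higher in 8 of 14 cases in each group, and 1 was lower in the Active group. The part of these cell types in the levels of the 10 genes was not tested.

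**Figure D4:**
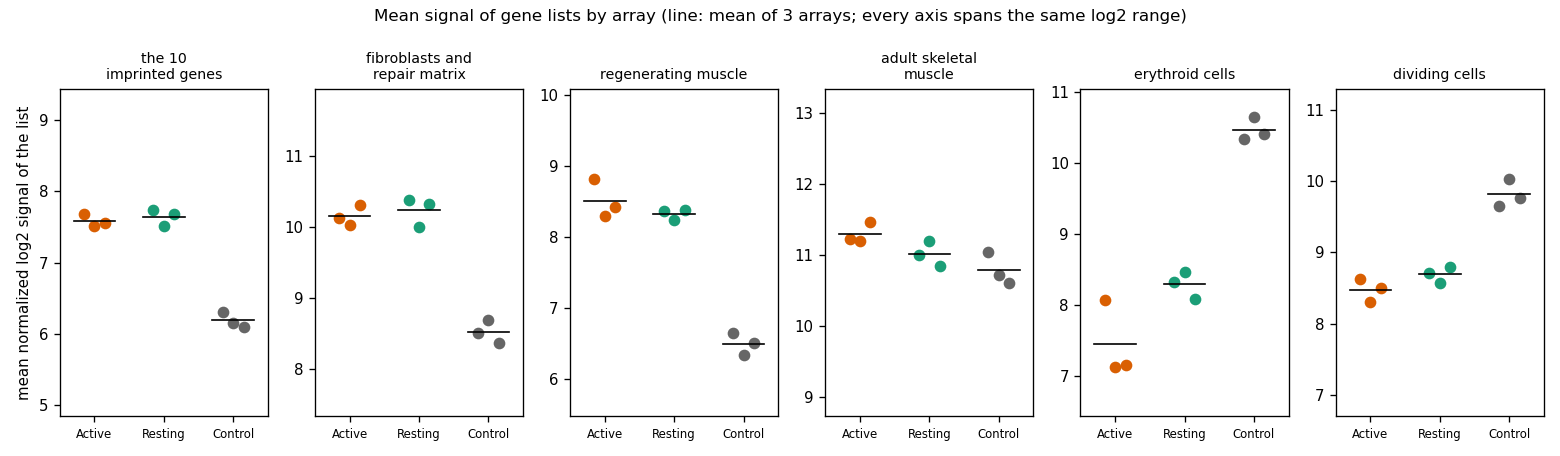
Mean normalized log2 signal of the 10 imprinted genes and of 5 marker lists in each array of the Active, Resting and Control groups, with a line at the mean of 3 arrays and axes that span the same log2 range. The 10 genes, the fibroblast and repair matrix list and the regenerating muscle list are higher in the fractured arrays, and the erythroid and dividing cell lists are lower.

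For each of the 10 genes the symbols with the most similar signal over the 9 arrays were listed by Pearson's r, as a description of shared group differences. The arrays fall into fractured and unfractured ones, so a high r mostly restates that difference. Mest was nearest to Tmem198b, to Timp1, an inhibitor of matrix proteases, and to Mfap5, a microfibril protein (r of 0.995, 0.995 and 0.994). H19 was nearest to Neat1, a nuclear noncoding RNA, then to Ptgfrn and to Dysf, a membrane repair protein of muscle (0.996, 0.995 and 0.994). For Grb10 they were Cnn3, Tnfaip6 and P4hb, an enzyme of collagen folding (0.995, 0.994 and 0.994), and for Meg3 Dact1, Tagln and Ms4a7 (0.988, 0.988 and 0.987). Ndn stood with Tacc2, Pltp and Col15a1 (0.986, 0.982 and 0.980), Plagl1 with Cgref1, AI597468 and Aldh1l2 (0.990, 0.987 and 0.986), Zim1 with Phyhd1, Fbxo17 and Apln (0.991, 0.990 and 0.988) and Cdkn1c with Mecom, Veph1 and Tll1 (0.975, 0.974 and 0.973). Peg3 and Dlk1, the genes that were not called, had the lowest values, with Bax (0.930) and Camsap3 (0.950) as the nearest.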

How the data were processed

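Total RNA of 9 tibia samples was hybridized by the authors to GeneChip Mouse Gene 2.0 ST arrays, 1 array per sample. The authors normalized the signals and deposited log2 values, and by their methods they kept entities flagged present in GeneSpring GX. The normalization algorithm was not given in the sources used here, nor was the genome build. The log2 base was inferred from the range of the values. The array medians ran from 6.34 to 6.402. Arrays give no depth, and their number limits the precision.

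The table used here had 24367 rows named by gene symbol. All of them were found with identical values in a table of 41345 probe sets, where the Active and Resting arrays carry other replicate numbers. The numbers here are those of the gene-named table, and 0 columns of sample values were left unused. All 9 arrays entered 1 linear model without covariates (lmFit and eBayes of limma 3.58.1, R 4.3.3; 6 residual degrees of freedom), with Benjamini-Hochberg adjustment over the whole table. Single genes also had two-sided exact permutation tests. The fit was tested on simulated data with 200 changed rows. Plots used matplotlib 3.10.9 (Python 3.11.15).

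The 10 genes, the lists and the tests were chosen with earlier results of these data known. Named were all 10 genes, every paralog, up to 4 genes of smallest p in the imprinted and pathway lists, the 3 symbols of highest r per gene and, of each marker list, up to 2 genes of highest mean. The rows between Dlk1 and Dio3 were taken by position in RefSeq (GRCm38.p6). Mir335, Mir544, Copg2, Kcnq1ot1, Phlda2, Rtl1, Dio3, Igf2 and the complete calls of the imprinted lists were named outside this rule, after their values were seen. Same-numbered arrays did not deviate together, so no pairing was used. Alternatives changed the table (probe sets), the test (the methods' t-test), the arrays in the fit (the 6 compared, or 1 left out), the rows (dim rows dropped, rows averaged), the scaling (quantile or median), the model (intensity trend, array weights, replicate block) and the threshold (1.5-fold). A block with the numbers of the probe set table was added after the data were seen.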

Additional observations from a re-analysis of the deposited data

Results flagged for a closer look

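The comparisons did not use 2 rows of the listed genes in which all Active arrays lay above the control arrays, with the highest signal in Active 2. Another row of the symbol had a higher mean. The second Plagl1 row was at 5.59 in Active 2, against 3.23 and 3.59 in the other Active arrays. It was at 3.25 to 3.43 in the Resting arrays and 2.98 to 3.18 in the control arrays. All fractured arrays were above the control, as in 18.9% of all rows for Active and 17.6% for Resting. Neither difference was called (1.05, adjusted p = 0.14, and 0.23, adjusted p = 0.8). Apart from Active 2, its signals lay below the 25th percentile of every array (4.967 at the lowest). The row annotated to Meg3, Mir1906-1 and Mir1906-2 was at 7.34 in Active 2, 6.85 and 7.21 in the other Active arrays and 6.48 to 6.82 in the Resting arrays, against 5.88 to 6.59 in the control arrays. In that row the Resting arrays overlapped the control arrays. All Active arrays were above all Resting arrays, by 0.45 on average (adjusted p = 0.82).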

How the results depend on the processing

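For Mest, H19, Grb10, Meg3 and Zim1 the calls against the control held in every alternative run, although a filter on the dimmest 40% of rows left out Zim1 and Dlk1. With the methods' t-test, which estimates the spread of each row alone, 2241 rows were called for Active and 1978 for Resting, and 5 of the 10 genes in the Active group. Only the test was taken from the methods. Rows were called here at an adjusted p under 0.05, whereas the methods give p under 0.05 with a change over 1.5-fold. Plagl1 (adjusted p = 0.058), Ndn (0.073) and Cdkn1c (0.2) were then not called in the Active group, nor Ndn (0.058) and Cdkn1c (0.14) in the Resting group. Cdkn1c was also lost in the Resting group in the probe set table (0.073). Peg3 was called in the Resting group in 6 alternatives, with an adjusted p of 0.012 with only the 6 arrays compared, 0.037 with the filter, 0.029 with array weights and 0.036 with the replicate block.

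Leaving out 1 array gave 4439 to 5777 rows and 7 to 8 of the 10 genes in Active minus Control, 3333 to 4997 rows and 7 to 9 genes in Resting minus Control, and 0 to 35 rows and 0 genes in Active minus Resting, where the 35 came without Active 1. Between Active and Resting 1 row was also called with the filter and 1 with array weights.

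Signs turned only in differences that were not called. The Dlk1 difference of Resting minus Control was -0.026 with quantile normalization and -0.0039 with array weights, and ran from -0.041 to 0.087 with 1 array left out. In Active minus Resting, array weights gave -0.015 for Cdkn1c, and averaged rows gave 0.36 for Plagl1 and 0.12 for Meg3. With 1 array left out these differences ran from -0.21 to 0.026 for Plagl1, -0.091 to 0.44 for H19, -0.080 to 0.21 for Cdkn1c, -0.16 to 0.073 for Mest, -0.10 to 0.021 for Meg3, -0.10 to 0.025 for Dlk1 and -0.077 to 0.22 for Grb10. The cause of these changes was not tested.

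With the replicate number as a block, 5502 rows were called in Active minus Control, 4400 in Resting minus Control and 0 in Active minus Resting, with 8, 9 and 0 of the 10 genes. The numbers do not pair the arrays: 1 of 9 correlations between deviations of same-numbered arrays was over 0.1. With the numbers of the probe set table it was 2 of 9, and 5891, 4693 and 0 rows were called. With 3 arrays a group, differences of the size seen between Active and Resting could not be separated from the spread.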

Other observations

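Among the marker lists not described above, endothelial genes were called higher in 5 of 10 cases and lower in 1 in the Active group, and higher in 4 and lower in 1 in the Resting group. Of 7 chondrocyte genes, 1 was lower in the Active group, and 1 was higher and 1 lower in the Resting group. Adipocyte genes were lower in 2 of 6 cases for Active and in 3 for Resting.

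Zdbf2, a paternally expressed gene of chromosome 1, had 7.01, 7.25 and 6.80 in the Active arrays. It read 6.42, 6.47 and 6.67 in the Resting arrays and 5.76, 5.59 and 5.68 in the control arrays. Its difference between the Active and the Resting group was 0.50 ± 0.13 (adjusted p = 0.53). That was the smallest adjusted p of the 48 other imprinted genes in this comparison, so the gene was picked from many. Of the 24 miRNA and snoRNA genes of imprinted regions listed by name, 12 had a row, and 1 was called higher in each comparison with the control, Mir298 in the Active group (0.72, adjusted p = 0.037) and Mir377 in the Resting group (0.63, adjusted p = 0.003).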
